A study of Mus musculus with 14 samples.

Results

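Of 24698 genomic regions bound by RXRα in mouse embryonic stem cells (mESCs), 15973 overlapped no RXRα peak of gastruloids, and 5580 of these, 34.9%, also overlapped no peak of the coactivator p300 at either stage. These 5580 mESC-only RXRα regions without p300 are described here. A region was the whole stretch of DNA covered by overlapping RXRα peaks of mESCs that included a peak of both libraries. Peaks that overlapped a peak of an input library had been dropped before. A region was kept when it overlapped no peak of either RXRα gastruloid library and no peak of the 4 p300 libraries, by at least 1 bp. The regions were thus chosen by the presence and absence of RXRα and p300 peaks in mESCs and gastruloids, and their presence, absence and height are given as description without a test. With a single mESC library every RXRα peak of that library counts as a region, which gave 15977 regions without p300 when the second RXRα mESC library was left out and 7531 when the first was.

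The study comprised 14 libraries, 12 chromatin immunoprecipitations and 2 inputs, from a reporter line of E14 mESCs. RXRα was tagged at its own gene with HA and the FKBP12F36V degron, a domain that allows the protein to be degraded on demand, and was precipitated with HA antibody from mESCs (2 libraries) and gastruloids (2 libraries). p300 was tagged at its own gene with V5 and the biotin ligase miniTurboID and was precipitated with V5 antibody from the same 2 cell types (2 libraries each). Sp5 and Zeb2, with the same HA and degron tag at their own genes, were profiled in gastruloids alone (2 libraries each), and 1 input per cell type came from the p300 line. mESCs were grown in serum with LIF. Gastruloids were aggregates of 300 such cells, exposed from 48 h to 3 µM of the Wnt pathway activator CHIR99021 and taken at 120 h. RXRα and p300 were thus measured in cells of different tagged lines, and the labels give no number of clones for a line. Nothing in the labels ties the 2 replicates of a group to separate cultures, so every p-value below measures the spread over regions, which are not replicates, and not the spread between cultures.

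RXRα is a nuclear receptor that binds DNA mostly as the partner of other receptors, among them the receptors for retinoic acid, vitamin D, thyroid hormone, oxysterols and fatty acids. Such pairs recognise repeats of the hexamer AGGTCA, and the spacing of the repeat influences which pair binds. p300 is a histone acetyltransferase that transcription factors recruit, and its presence is widely used to mark active enhancers. Retinoic acid and thyroid hormone receptors bind corepressors in the absence of their ligands.

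The sequences below show where the hexamer lay at gene starts that carried such a region. No genome was given, so sequence could be read only in promoter windows, which run from 250 bases before to 50 bases after an annotated start in RefSeq's GRCm38.p6. A summit of a region without p300 fell in 67 windows of 63 gene symbols, 41 of them protein-coding. Windows were searched for AGGTCA on both strands, with exact letters. Hormad1 is shown because it was first among these windows by the smaller of the 2 RXRα folds, Prm2, Sgk1 and Oxt because they held the hexamer preceded by TCA, the form bound by single receptors such as Esrrb and Nr5a2, and Igsf23 and Wfdc15a because they held 2 hexamers in the same direction with 1 base between. Pou5f1 is shown as the promoter of a core pluripotency gene. The windows are printed 5′ to 3′ on the strand of the gene, and capitals mark AGGTCA or, on the other strand, TGACCT.
Hormad1: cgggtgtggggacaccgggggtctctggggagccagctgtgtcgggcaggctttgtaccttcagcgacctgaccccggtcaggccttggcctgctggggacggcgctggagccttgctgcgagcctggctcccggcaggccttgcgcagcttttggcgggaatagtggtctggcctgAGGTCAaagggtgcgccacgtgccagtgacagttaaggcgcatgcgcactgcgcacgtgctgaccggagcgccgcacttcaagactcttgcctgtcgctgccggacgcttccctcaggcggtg
Prm2: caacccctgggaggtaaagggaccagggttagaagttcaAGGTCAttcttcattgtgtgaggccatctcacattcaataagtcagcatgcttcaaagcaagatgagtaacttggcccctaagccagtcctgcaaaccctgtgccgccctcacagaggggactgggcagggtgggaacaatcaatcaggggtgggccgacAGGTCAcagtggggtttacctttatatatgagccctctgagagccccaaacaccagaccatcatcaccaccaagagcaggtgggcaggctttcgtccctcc
Sgk1: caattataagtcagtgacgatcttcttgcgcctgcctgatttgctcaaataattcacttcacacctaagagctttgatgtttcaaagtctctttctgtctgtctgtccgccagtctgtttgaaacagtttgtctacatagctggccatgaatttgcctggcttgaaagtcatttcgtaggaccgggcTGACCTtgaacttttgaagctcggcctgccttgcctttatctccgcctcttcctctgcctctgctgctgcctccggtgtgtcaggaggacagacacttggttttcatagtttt
Oxt: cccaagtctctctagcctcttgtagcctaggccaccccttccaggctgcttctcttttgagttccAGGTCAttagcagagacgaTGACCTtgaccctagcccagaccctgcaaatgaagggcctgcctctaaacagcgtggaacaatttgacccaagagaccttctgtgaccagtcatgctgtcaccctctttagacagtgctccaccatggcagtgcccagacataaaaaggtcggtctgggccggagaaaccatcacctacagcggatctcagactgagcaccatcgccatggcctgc
Igsf23: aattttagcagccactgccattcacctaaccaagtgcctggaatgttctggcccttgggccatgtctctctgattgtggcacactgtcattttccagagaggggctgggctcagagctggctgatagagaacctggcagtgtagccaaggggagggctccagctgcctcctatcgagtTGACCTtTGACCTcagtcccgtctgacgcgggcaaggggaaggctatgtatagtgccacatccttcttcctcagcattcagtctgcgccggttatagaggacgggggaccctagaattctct
Wfdc15a: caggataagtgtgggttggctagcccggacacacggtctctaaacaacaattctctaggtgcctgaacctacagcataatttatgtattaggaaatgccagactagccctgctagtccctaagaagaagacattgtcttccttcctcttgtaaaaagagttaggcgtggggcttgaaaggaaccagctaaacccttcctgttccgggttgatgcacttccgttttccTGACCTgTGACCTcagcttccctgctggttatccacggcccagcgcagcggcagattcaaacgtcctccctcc
Pou5f1: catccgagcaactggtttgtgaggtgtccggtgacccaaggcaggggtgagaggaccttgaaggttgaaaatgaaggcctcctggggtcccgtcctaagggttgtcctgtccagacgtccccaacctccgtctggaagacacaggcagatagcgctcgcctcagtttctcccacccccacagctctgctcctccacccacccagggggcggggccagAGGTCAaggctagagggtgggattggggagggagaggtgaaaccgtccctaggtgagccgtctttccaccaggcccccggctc

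The Hormad1 window (chr3:95559427-95559726, plus strand) belongs to a gene of the meiotic chromosome axis. Its RXRα summit had folds of 13.7 and 10.2 in the 2 libraries and lay 5.5 bp from the centre of the hexamer. At Prm2 (chr16:10792056-10792355, minus strand), which encodes a protamine of sperm chromatin, the folds were 8.98 and 8.97 and the nearest hexamer was 1.5 bp from the summit. At Sgk1 (chr10:21978422-21978721, plus strand), a kinase gene induced by serum and glucocorticoids, the folds were 5.58 and 5.07 and the distance was 4.5 bp. The hormone gene Oxt (chr2:130575919-130576218, plus strand) had folds of 3.46 and 4.49 and a distance of 6.5 bp. In these 4 promoters the summit of RXRα thus fell within 10 bp of the hexamer.

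The spaced repeat of Igsf23 (chr7:19950694-19950993, minus strand), an immunoglobulin superfamily gene, lay under folds of 5.34 and 5.17, with the nearest hexamer 19.5 bp from the summit. In Wfdc15a (chr2:164200068-164200367, minus strand), which encodes a WAP-domain protein, the folds were 6.49 and 4.06, from 19 and 12 fragments, and the distance was 41.5 bp. The repeat with 1 base between hexamers is the arrangement bound by pairs of RXRα and the fatty acid receptors. It was present in 2 of the 67 windows and in 13 of all 32817 promoter windows. Windows with the summit of a region listed for RXRα in both libraries of both stages held it in 3 of 289. No window with the summit of an mESC-only region that overlapped a p300 peak held it. At Pou5f1 (chr17:35505782-35506081, plus strand), which encodes the pluripotency factor Oct4, the summit lay 11 bp inside the gene, with folds of 4.22 and 4.56 from 102 and 70 fragments, and the hexamer was 41.5 bp away.

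In all, 31 of the 67 windows (46.3%, 95% Wilson interval 34.9 to 58.1) held the hexamer, against 16.3% of all promoter windows. The 31 windows came from 29 of 63 regions, since some genes had overlapping windows. Other classes of RXRα region held it too. Among windows with the summit of an mESC-only region that had p300 in mESCs but not in gastruloids it was 50.0% (15 of 30). Among those with p300 at both stages it was 30.0% (15 of 50), among those with p300 in other combinations of lists 41.0% (34 of 83), and among regions in which RXRα was listed in both libraries of both stages 27.0% (78 of 289). These shares are descriptions without a test. Base composition differed, with a median GC of 56.7% in the 67 windows and 52.7% in all windows. In 5 groups of windows by GC content, from low to high, all windows held the hexamer in 17.1%, 21.9%, 19.6%, 14.1% and 8.31%, and the windows with a summit of a region without p300 in 0 of 1, 5 of 9, 11 of 22, 12 of 27 and 3 of 8.

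The hexamers lay close to the summit. The 67 windows held 45 hexamers, of which 34 (75.6%) were within 50 bp of the summit, with a median distance of 28.5 bp. In every class hexamers were counted per window. A hexamer in overlapping windows, as at Hormad1 and Fam178b, thus counts more than once. The median distance was 47 bp for the 20 hexamers in windows of regions with p300 in mESCs alone, 53 bp for the 20 with p300 at both stages, 31.5 bp for the 44 with p300 in other combinations of lists, and 37 bp for the 86 in regions kept in gastruloids. The window bounds limit how far a hexamer can lie, by an amount that depends on where the summit falls in the window. Places of the summits within the windows were not compared between classes.

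**Figure D1:**
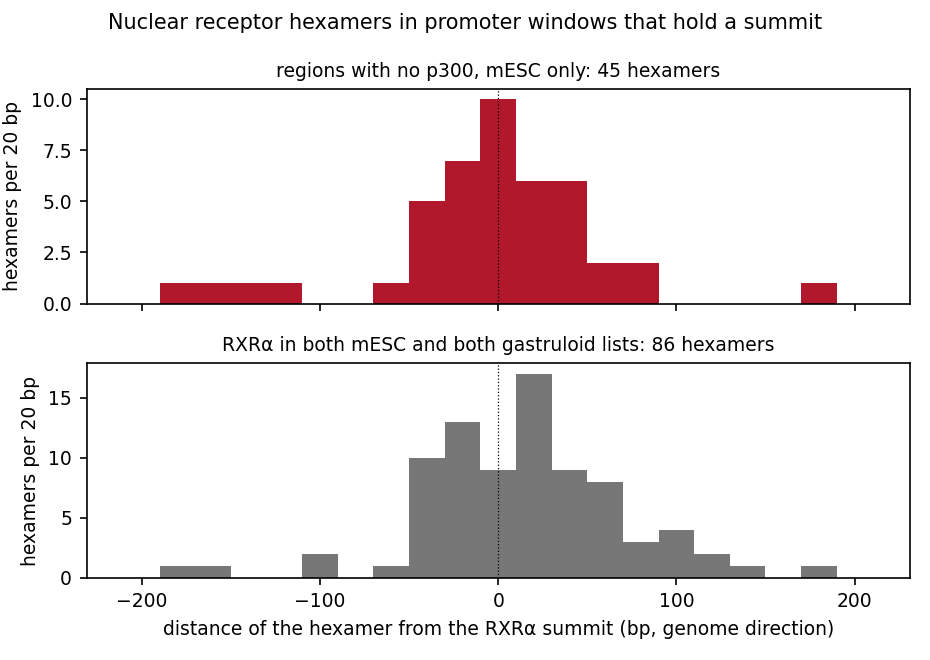
Number of AGGTCA hexamers (y axis, per 20 bp) by distance from the RXRα summit in bp (x axis) in promoter windows that hold a summit, for mESC-only regions without p300 (upper panel, 45 hexamers) and for regions in both mESC and both gastruloid lists (lower panel, 86 hexamers). The highest bar of the upper panel is at the summit, and 34 of the 45 hexamers lie within 50 bp. The counts include the farthest hexamers, which lie outside the drawn range. Examples are Fam234b at 218.5 bp (upper) and Gm30934 at 266.5 bp (lower). Hexamers are counted per window, so a hexamer in overlapping windows counts more than once.

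Other motifs were searched in the same way. The TCA-extended hexamer was present in 3 of the 67 windows (4.48%) and in 139 of all windows (0.424%). In windows of mESC-only regions with p300 it was in 1 of 30 (mESCs alone), 0 of 50 (both stages) and 0 of 83 (other combinations). The E-box CACCTG, the type bound by Zeb2, was in 29.9% of the 67 windows and in 20.2% of all windows. For the Sp and Klf box GGGCGG the shares were 32.8% of the 67 windows and 35.6% of all, and for the Sox hexamer CATTGT 13.4% of the 67 and 12.6% of all. No window matched the octamer of Oct4, against 1.74% of all windows. The extended hexamer and the spaced repeats contain AGGTCA and are not independent of it. A match is a description of letters and not a shown site.

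RXRα enrichment was lower in the regions without p300 than in the other mESC-only regions. The value used is the authors' fold enrichment, the ratio of signal at the summit to local background. Its median was 5.67 in the first RXRα library (quartiles 4.46 and 7.41, range 2.10 to 24.2) and 4.69 in the second (3.93 and 5.84, range 2.46 to 17.8). Regions with p300 in mESCs alone, which numbered 2677, had medians of 7.26 and 5.14. The 4428 regions with p300 at both stages had 9.51 and 6.25, the 3288 with p300 in other combinations of lists 6.50 and 4.80, and the 1572 regions kept in both gastruloid lists had 8.63 and 6.78. The quartile ranges of all these classes overlapped. At the median summit of a region without p300, 28 fragments were recovered in the first library and 21 in the second, against 58 and 32 at regions with p300 at both stages. The regions without p300 were also narrower, with a median of 473 bp, against 534 bp, 557 bp, 523 bp and 702 bp in the other classes in the same order.

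**Figure D2:**
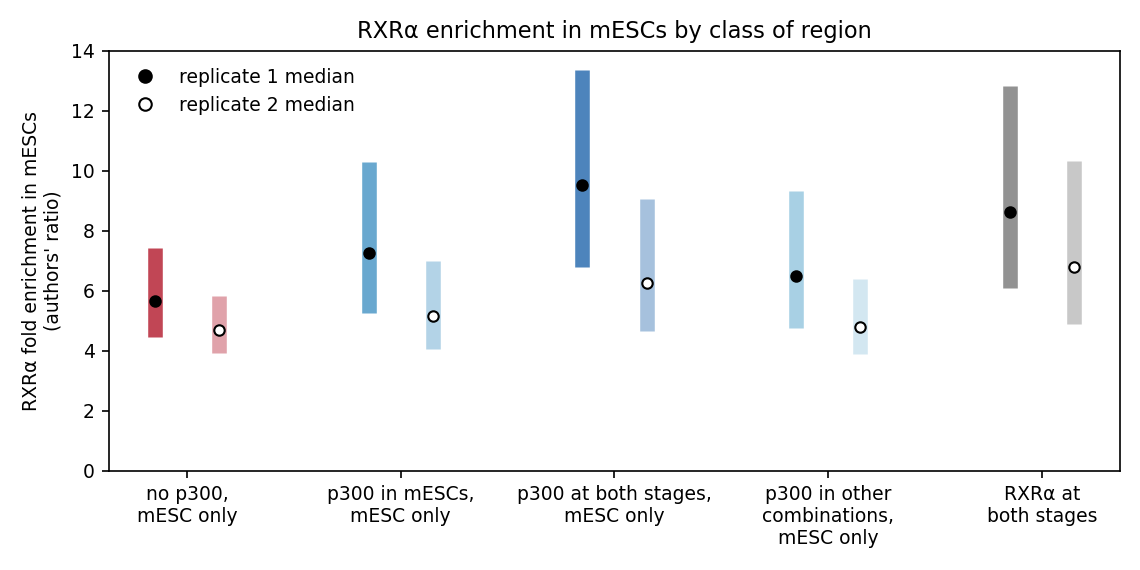
RXRα fold enrichment in mESCs (y axis, the authors' ratio) for 5 classes of region, with the median (circle, filled for replicate 1 and open for replicate 2) and the range between the quartiles (bar). The regions without p300, on the left, have medians of 5.67 and 4.69, the lowest of the 5 classes in each library.

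The 2 libraries ranked these regions alike, with a Spearman correlation of 0.714 across the 5580 regions, which share both libraries and are not independent. The first library gave the higher fold in 4291 regions. The median distance between the summits of the 2 libraries was 35 bp, and 3513 regions (63.0%) had summits within 50 bp of each other. A −log10 q of at least 5 was reached by 4824 regions (86.5%) in the first library and 4058 (72.7%) in the second.

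The share of mESC-only RXRα regions without p300 was lower among regions with stronger RXRα. With the 15973 regions put in 10 equal groups by the smaller of their 2 folds, 43.4% of the weakest group lacked p300 (95% Wilson interval 41.0 to 45.8), and so did 46.02% and 42.8% of the next 2 groups. The share was 38.4% in the sixth group, 27.9% in the eighth, 21.5% in the ninth and 9.01% in the strongest (7.70 to 10.5). The share with p300 in all 4 lists ran the other way, at 12.7% in the weakest group and 58.9% in the strongest. The share with p300 in mESCs alone stayed between 14.2% and 18.9%. Height and presence come from the libraries of the rule, and these shares are given without a test.

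**Figure D3:**
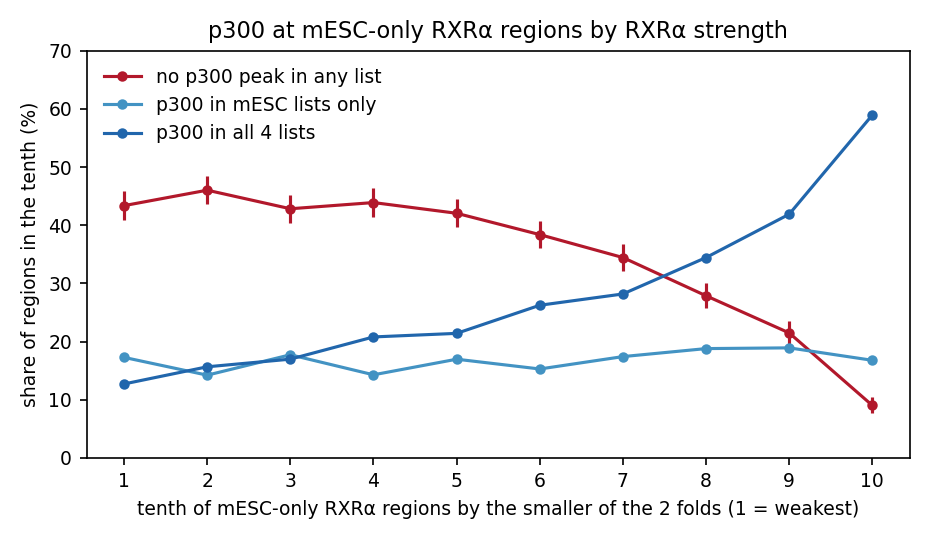
Share of mESC-only RXRα regions (y axis, %) with no p300 peak, with p300 in the mESC lists only and with p300 in all 4 lists, for 10 groups of regions ordered by the smaller of the 2 RXRα folds (x axis, 1 = weakest). Vertical lines are 95% Wilson intervals, drawn for the regions without p300, whose share is 43.4% in group 1 and 9.01% in group 10.

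Absence from the p300 lists did not mean distance from p300. The nearest p300 peak of any of the 4 lists lay a median of 3625.5 bp away, with quartiles of 1357 and 8052.25 bp and extremes of 1 and 283578 bp. The nearest p300 peak of the 2 mESC lists lay a median of 7987.5 bp away. A peak of any list lay less than 1 kb away for 1079 regions (19.3%) and less than 10 kb away for 4523 (81.1%). Just inside the rule stood 102 regions with a p300 peak under 100 bp away, with median folds of 4.94 and 4.10. Just outside stood 1407 mESC-only regions that overlapped a peak of a single p300 list, 963 in 1 mESC list and 444 in 1 gastruloid list, with median folds of 6.11 and 4.70. The nearest RXRα peak of the 2 shorter gastruloid lists lay a median of 15004.5 bp away. Of the regions, 173 (3.10%) lay within 5 kb of another such region and 533 (9.55%) within 10 kb. None of these distances was set against those of other regions or positions in the genome. Whether they are particular to regions without p300 is thus not shown. By chromosome the regions without p300 made up 29.04% (X) to 39.5% (chromosome 7) of the mESC-only regions.

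The strongest region without p300, by the smaller of the 2 folds, lay downstream of the zinc-finger gene Zfp984 at chr4:147738560-147739172, with folds of 24.2 and 17.8 (mean 21.02 ± 4.55, SD, n = 2 libraries). Its nearest p300 peak was 43613 bp away. The second lay 1439 bp outside Slamf8, a receptor gene of immune cells, at chr1:172592095-172592705 (19.6 and 16.03). The third lay inside Rhobtb3 at chr13:75937795-75938478 (20.2 and 15.9). The fourth was 27274 bp from Cstf2t, a gene of messenger RNA 3′ end processing, at chr19:31113538-31114486 (20.97 and 15.4), and was the only region of the first 10 with a Sp5 peak in gastruloids. None of the 10 had a Zeb2 peak.

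The region near Brwd1, which encodes a bromodomain protein, at chr16:96086998-96087719 held the most fragments, 380 and 386, with folds of 15.9 and 15.4. The other 5 lay near Mapk1ip1, Atxn2, which encodes an RNA-binding protein, Gm36375, Stard7, which encodes a lipid transfer protein, and Adamts14, a procollagen protease gene. Their smaller folds were 15.1, 15.0, 15.0, 14.7 and 14.7. Of the 10, 9 lay outside the gene with the nearest end, by 1439 to 36058 bp.

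None of the 10 strongest regions lay at a gene start. The 5 strongest at gene starts were thus weaker by construction. They lay at Krtap15, a hair keratin-associated gene (folds of 12.97 and 12.1), Cxcr3, a chemokine receptor gene (13.2 and 11.6), Phactr1, an actin regulator gene (13.9 and 10.4), Mfap5, which encodes a microfibril protein (10.3 and 10.3), and Hormad1. Their distance to the nearest p300 peak ran from 3873 bp at Mfap5 to 50714 bp at Krtap15. For Mfap5 the tables gave no strand, so the end nearest to the summit may be its start or its other end.

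Position in the genome was not used to choose the regions. Most were distal: 2801 (50.2%) lay inside a protein-coding gene and over 1 kb from both ends, and 2487 (44.6%) lay between genes. Within 1 kb of a gene start were 258, 4.62% (95% Wilson interval 4.10 to 5.21). The share was 2.69% (72 of 2677) in regions with p300 in mESCs alone, 3.46% (153 of 4428) in regions with p300 at both stages, 10.3% (340 of 3288) in mESC-only regions with p300 in other combinations of lists, 5.15% in all mESC-only regions and 49.0% in regions kept in gastruloids. Against regions with p300 in mESCs alone the odds ratio was 1.75 (95% interval 1.35 to 2.29; two-sided Fisher's exact test, adjusted p = 5.61e-05). Taken in each mESC library by itself, 5.06% and 5.78% of the regions without p300 were at gene starts (mean 5.42 ± 0.508, SD, n = 2), against 2.52% and 2.68% (2.60 ± 0.113, n = 2) of those with p300 in mESCs alone. The difference of 1.93 points held without each library in turn. It was 3.09 points without the first RXRα mESC library and 1.01 points with the 2 RXRα mESC lists at equal length (Fisher's exact test, adjusted p = 0.0523). Since the classes differed in RXRα strength, the test was repeated within 3 ranges of the smaller fold, bounded at 4.29 and 6.02. The differences were 2.63, 0.874 and 1.20 points from weak to strong (Fisher's exact test, adjusted p = 0.0326, 0.294 and 0.171).

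Against regions with p300 at both stages the odds ratio at gene starts was 1.35 (95% interval 1.10 to 1.66; two-sided Fisher's exact test, adjusted p = 0.00760), a difference of 1.17 points. This call rested on single libraries. Without the second p300 mESC library the difference was 0.403 points (Fisher's exact test, adjusted p = 0.337), and without the first p300 mESC library 0.787 points (adjusted p = 0.0470). It was 1.80 points without the first p300 gastruloid library and 2.14 points without the first RXRα mESC library. Without the first RXRα gastruloid library, the longer of the pair with 29867 peaks against 3111, it turned to −5.95 points (Fisher's exact test, adjusted p = 3.33e-34). It also turned within the lower 2 ranges of fold (−1.31 and −0.569 points).

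Regions without p300 lay far from genes less often than regions with p300 in mESCs alone. Over 100 kb from any gene end were 435 of 5580 (7.80%), against 303 of 2677 (11.3%) with p300 in mESCs alone. The odds ratio was 0.662 (95% interval 0.568 to 0.773; two-sided Fisher's exact test, adjusted p = 1.46e-06). The share was 16.8% in regions with p300 at both stages, 9.52% in those with p300 in other combinations and 6.30% in regions kept in gastruloids. Taken in each mESC library by itself, the shares were 10.1% and 8.05% without p300 (mean 9.07 ± 1.44, SD, n = 2), against 15.7% and 11.2% with p300 in mESCs alone (13.5 ± 3.20, n = 2). The difference of −3.52 points was past the threshold under all 17 alternatives run, from −2.50 to −5.62 points, the last without the second RXRα mESC library. Inside genes lay 50.2% of the regions without p300, against 47.7% of those with p300 in mESCs alone, an odds ratio of 1.10 (95% interval 1.01 to 1.21; two-sided Fisher's exact test, adjusted p = 0.0385). This difference of 2.46 points missed the threshold without the first RXRα mESC library (1.79 points), the first RXRα gastruloid library (1.70) or the second p300 mESC library (2.02), with adjusted p of 0.108, 0.123 and 0.122 by Fisher's exact test. It was 3.93 points without the second RXRα mESC library.

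**Figure D4:**
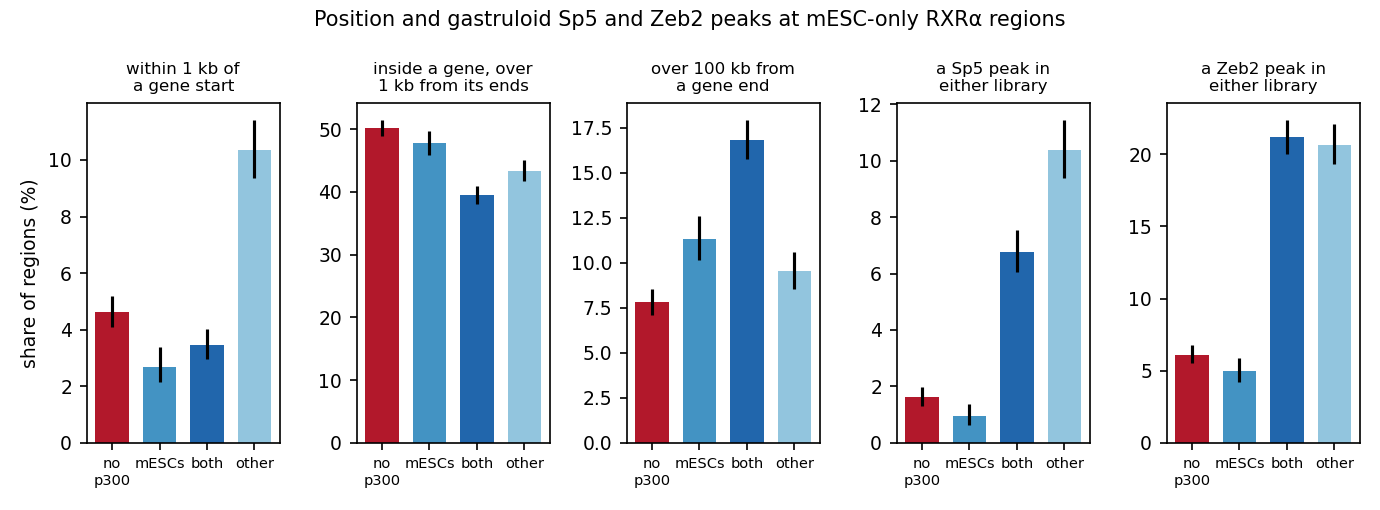
Shares of mESC-only RXRα regions (y axes, %, each from 0) in 3 positions and with a Sp5 or Zeb2 peak in either gastruloid library, for regions without p300, with p300 in mESCs alone, at both stages and in other combinations of lists (left to right). Lines are 95% Wilson intervals. Regions without p300 have 4.62% at gene starts, against 2.69%, 3.46% and 10.3%, and 7.80% over 100 kb from a gene end, against 11.3%, 16.8% and 9.52%.

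The Sp5 and Zeb2 libraries were also not used by the rule. Sp5 is a zinc-finger factor of the Wnt response and Zeb2 a repressor of epithelial genes, and both were measured in gastruloids, where these regions had neither an RXRα nor a p300 peak. A Sp5 peak of either library was found at 90 regions without p300 (1.61%) and at 25 with p300 in mESCs alone (0.934%), an odds ratio of 1.74 (95% interval 1.11 to 2.72; two-sided Fisher's exact test, adjusted p = 0.0234). The first Sp5 library held 82 of the 90 and the second 32, and 24 were in both. A Zeb2 peak was found at 341 regions without p300 (6.11%), against 133 with p300 in mESCs alone (4.97%), an odds ratio of 1.25 (95% interval 1.01 to 1.53; two-sided Fisher's exact test, adjusted p = 0.0385). Here 329 came from the first Zeb2 library, 48 from the second and 36 from both. Regions with p300 at both stages stood at 6.75% for Sp5 and 21.2% for Zeb2, regions with p300 in other combinations at 10.4% and 20.7%, regions kept in gastruloids at 67.4% and 84.0%, and all RXRα mESC regions at 20.96% and 31.4%.

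Both differences from regions with p300 in mESCs alone rested on single libraries. The Sp5 difference of 0.679 points was 0.354 points without the second p300 mESC library and 0.431 without the second p300 gastruloid library (Fisher's exact test, adjusted p = 0.221 and 0.190). It was 1.41 points without the first RXRα gastruloid library. The Zeb2 difference of 1.14 points was 0.764 and 0.190 points without the same 2 p300 libraries (Fisher's exact test, adjusted p = 0.210 and 0.764) and 1.08 without the second RXRα gastruloid library (adjusted p = 0.0501). It was 2.16 and 2.24 points without the first or second RXRα mESC library and 2.11 without the first RXRα gastruloid library. With a peak required in both libraries the differences were 0.281 points for Sp5 and 0.234 for Zeb2 (Fisher's exact test, adjusted p = 0.0514 and 0.213).

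Each region was assigned to the protein-coding gene with the nearest end within 100 kb, which does not show which gene it regulates. Of 21887 genes, 4001 (18.3%) had at least 1 region without p300. Most, 3135, had exactly 1, and 57 had 4 or more. Of the 4001 genes, 2061 had no other mESC-only RXRα region, while 1940 also had mESC-only regions with a p300 peak in at least 1 list. Kif13a, a kinesin gene, had 6 regions without p300 among 7 mESC-only regions, and Trak1, a gene of mitochondrial transport, had 6 of 9. There were 5 such regions each at Bicc1, which encodes an RNA-binding protein (5 of 5), Gpc4, a heparan sulfate proteoglycan gene (5 of 7), Plekha5 (5 of 7), Gtf2ird1, a transcription factor gene (5 of 9), Med13l, which encodes a Mediator subunit (5 of 10), Tbx3 (5 of 11), Epb41l4a (5 of 13) and Rbpj, the transcription factor of Notch signalling (5 of 14). The strongest at Bicc1 lay inside the gene, with folds of 15.6 and 11.9, and the strongest at Kif13a, also inside, had 13.8 and 9.95.

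Among 13 lists of genes, the share of assigned mESC-only RXRα regions that had no p300 ran from 18.8% to 71.4%, with a median of 36.0% over the lists, against 36.3% (5145 of 14177) over all assigned regions. No test was made on the lists. Some genes belonged to several lists, such as Pparg (lipid targets and RXR partners) and Esrrb (naive pluripotency and other nuclear receptors). Their regions count in each list, so the shares of the lists are not independent.

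In the pluripotency lists the shares were below that of all assigned regions, which lay inside the 95% intervals of both lists. Naive pluripotency genes had 27 of 95 regions without p300 (28.4%, 95% Wilson interval 20.3 to 38.2), at 14 of 22 genes. Tbx3, a T-box factor of self-renewal, had 5 of 11, with folds between 3.55 and 6.09. Klf4, a zinc-finger factor used in reprogramming, had 3 of 8, the strongest 23631 bp upstream with folds of 11.6 and 14.7 and 22531 bp from the nearest p300 peak. Prdm14, a regulator of naive pluripotency and of germ cells, had 3 of 8, the strongest at 14.4 and 11.4. Esrrb, an orphan nuclear receptor that sustains self-renewal, had 2 of 8, at 3.32 and 4.36 and at 4.30 and 4.24. Nanog, a homeobox factor of the same network, had 2 of 4. One Nanog region lay 12276 bp upstream with folds of 6.94 and 5.49, and the other inside the gene with 7.51 and 4.58.

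Core pluripotency and self-renewal genes had 20 of 78 (25.6%, 17.3 to 36.3), at 12 of 27 genes. All 4 mESC-only regions of Sall4, a zinc-finger partner of Oct4, lacked p300, with folds between 3.29 and 6.53. Jarid2, a subunit of the Polycomb repressive complex, had 3 of 10, the strongest at 10.8 and 8.13. Otx2, a factor of the exit from naive pluripotency, had 2 of 6, of which one reached 11.9 and 11.6. Pou5f1 had 2 of 4: the promoter region shown above, with a p300 peak 499 bp away, and a weaker region 8820 bp upstream with folds of 2.86 and 3.09.

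Retinoic acid signalling, the pathway of the best known RXRα partners, had the lowest share, 9 of 48 (18.8%, 10.2 to 31.9), at 7 of 35 genes. Cyp26b1, which encodes an enzyme that degrades retinoic acid, had 3 of 5, all downstream, with folds of 6.48 and 5.15, 5.97 and 6.54, and 5.34 and 4.51. The other 6 genes had 1 each, among them Aldh1a3, a retinoic acid synthesis gene (4.67 and 3.68), Hoxb1, a target of the pathway (3.14 and 2.82), and Meis2, a Hox cofactor gene (5.40 and 3.39). The p300 peak nearest to the Aldh1a3 region was 20 bp away.

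Nuclear receptors that pair with RXR had 7 of 19 (36.8%), at 5 of 19 genes. Vdr, the vitamin D receptor gene, had 3 of 5, of which one lay 359 bp upstream of the start with folds of 5.59 and 4.80 and overlapped Sp5 and Zeb2 peaks of gastruloids. Nr1h2, the gene of an oxysterol receptor, had 1 of 1 with folds of 10.5 and 7.95 and a p300 peak 153 bp away. Pparg, a fatty acid receptor gene, had 1 of 3 (8.59 and 5.76), and Nr2f2, an orphan receptor gene, 1 of 1 (3.57 and 3.94). Other nuclear receptors had 9 of 25 (36.0%), with Nr5a2 at 2 of 4 and Hnf4a at 1 of 1 (6.70 and 5.50). Lipid nuclear receptor targets had 10 of 32 (31.2%). Plin2, which encodes a lipid droplet coat protein, had 3 of 4, including its promoter at 3.48 and 2.86, and Srebf2, a regulator of cholesterol synthesis, had 1 of 1 at 11.5 and 7.996.

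Cytosolic ribosomal protein genes stood above all assigned regions, with 16 of 26 (61.5%, 42.5 to 77.6), at 15 of 76 genes. Rpl34 had 2 of 2, and Rpl11, Rpl14 and Rpl29 each had 1 of 1. These regions were not all at the genes: those of Rpl34 lay 24328 and 66728 bp upstream, that of Rpl14 53480 bp downstream, and that of Rpl29 inside the gene, with folds of 5.52 and 3.76. Germline genes had 9 of 18 (50.0%, 29.03 to 71.0). Tex14, a gene of germ cell bridges, had 2 of 4, and Dazl, Ddx4 and Hormad1 each had 1 of 1. The Ddx4 region lay 192 bp from the start of this germ cell helicase gene, with folds of 3.75 and 3.73. The Dazl region, at 10.2 and 7.64, lay 41430 bp downstream of this RNA-binding protein gene.

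**Figure D5:**
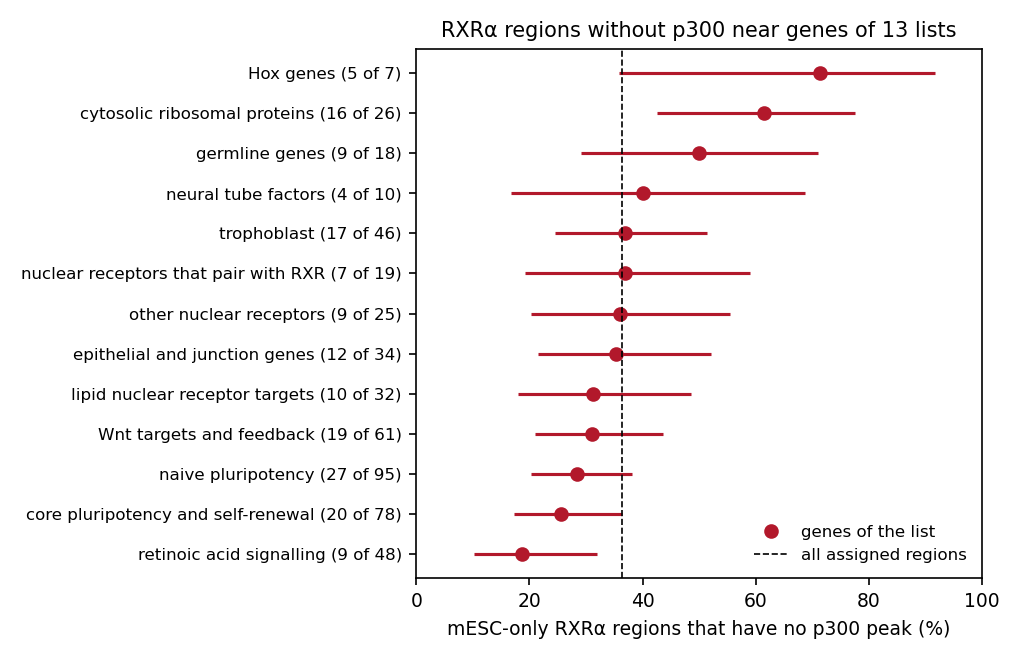
Share of assigned mESC-only RXRα regions without p300 (x axis, %) near the genes of 13 lists (points), with 95% Wilson intervals (lines) and the counts beside each name. The dashed line is the 36.3% of all assigned regions; the pluripotency and retinoic acid lists lie left of it and the ribosomal protein list right of it.

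Of developmental lists, Hox genes had few mESC-only regions, of which 5 of 7 lacked p300 (71.4%, 35.9 to 91.8). They lay at Hoxa10, Hoxa13, Hoxb1, Hoxb13 and Hoxb3, with folds between 2.78 and 4.76. Trophoblast genes had 17 of 46 (37.0%), with Eomes, a T-box factor, at 4 of 5 and Ets2 at 4 of 6. Wnt targets and feedback genes had 19 of 61 (31.1%). Axin2, a feedback inhibitor, had 3 of 4, and Tcf7 and Tcf7l2, which encode transcription factors of the pathway, 3 of 3 and 3 of 6. One Tcf7 region lay 1 bp from a p300 peak. Neural tube factors had 4 of 10 (40.0%), with folds of 10.6 and 5.58 at Sox1. Epithelial and junction genes had 12 of 34 (35.3%), with Epcam and Tjp1, a tight-junction scaffold gene, at 2 of 4 and 2 of 3. The stronger Tjp1 region lay inside the gene with folds of 14.5 and 10.2. The named regions of the lists are part of the regions without p300, so their folds lie within the range of that class by construction.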

How the data were processed

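The deposited files held 1 peak list per library, not pooled. Per the submitters' processing notes, fastp 0.20.1, BWA 2.2.1 and MACS2 2.2.7 were used with GRCm38.p6, also given as mm10; their settings and the control used are not given in the sources used here. The deposited score, fold (a ratio), −log10 p and −log10 q of each peak are the authors' own, with a q threshold of 0.05. With input-overlapping peaks dropped, the RXRα lists held 49661 and 28112 peaks (mESCs) and 29867 and 3111 (gastruloids), the p300 lists 44506 and 35371 (mESCs) and 63117 and 75346 (gastruloids), and the gastruloid lists of Sp5 19714 and 11932 and of Zeb2 44310 and 12222. Only the 21 main chromosomes were used. Library depth was not used here. Fragments at a summit were recovered from the fold and −log10 p and came out whole within 0.01 in 99.98% of the regions without p300; intervals cover counting error only.

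Shares were compared with Fisher's exact test (scipy 1.17.1, Python 3.11.15), Benjamini-Hochberg adjusted over 6 tests, threshold 0.05. On simulated data the steps recovered the planted classes, hexamers and fragment counts. The gene end planned for the position tests was taken as the start for the 17492 of 21887 protein-coding genes with strand in RefSeq's promoter table and as either end for the other 4395. Motif tests planned for a genome were replaced by promoter windows, without a test. Regions, gene lists and tests were chosen with earlier results of these data known. The text names the 10 strongest regions, the 5 strongest at gene starts, the 10 genes with most regions and up to 4 genes per list with most regions; Nanog, Pparg, Srebf2, Hoxb3 and the printed promoters were chosen after their values were seen. Alternatives were other thresholds, distances, overlaps, list lengths and ranges of fold, and the omission of each library.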

Additional observations from a re-analysis of the deposited data

How the results depend on the processing

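Of 182 alternative values, 141 were the same, 33 kept direction and missed the threshold, 3 moved and 5 turned. For the tested differences, the same meant the same direction and call. The number of regions (13 of 14 the same), hexamer share (18 of 19), smaller fold (14 of 14) and list shares (18 of 19) had no test. For these, the same meant staying within a set tolerance of the main value, and moved meant leaving it. The tolerances were wide: 34.9% to 58.1% for the hexamer share and 20.2% to 55.5% for the median list share. Numbers of regions from 3798 to 7531 counted as the same. Their counts of the same thus say little about stability and should not be read together with those of the tested differences. The number of regions was 5590 to 15977 when 1 library was left out, the last without the second RXRα mESC library. Differences between shares are in points. Gene starts, against p300 in mESCs alone: 1.01 with RXRα mESC lists of equal length, 0.874 and 1.20 in the middle and highest of the 3 ranges of fold, and 1.58 to 3.09 without single libraries. Gene starts, against p300 at both stages: −0.471 with no p300 peak within 1 kb (Fisher's exact test, adjusted p = 0.251), −1.31 and −0.569 in the lower 2 ranges, 0.797 with −log10 q of at least 5, 0.579 with equal lists, 0.657 with stranded starts alone and −5.95 to 2.14 without single libraries. Inside genes: 3.04 with equal lists, 1.95, 4.68 and 0.792 in the 3 ranges, 1.70 to 3.93 without single libraries. Sp5: 0.458 with no p300 within 1 kb, 0.487 with equal lists, 0.750, 0.574 and 0.274 in the ranges, 0.281 with both Sp5 libraries, 0.354 to 1.41 without single libraries. Zeb2: 0.829 with −log10 q of at least 5, 0.969 with no p300 within 1 kb, 0.233 with equal lists, 0.598, 1.46 and −0.0687 in the ranges (the last turned), 1.04 and 0.337 with Zeb2 library 1 or 2 alone, 0.234 with both, and 0.190 to 2.24 without single libraries. The share over 100 kb from genes ran from −5.62 to −3.06 without single libraries. In the highest range of fold 75% of 8 windows held the hexamer, and the median list share was 14.3%; without single libraries these ran from 37.1% to 50.0% and from 30.6% to 44.1%. The median smaller fold ran from 4.36 to 4.64 without single libraries. The cause of these changes was not tested, except that a left-out library admits regions by construction. No paired analysis was possible because no comparison sets one group of libraries against another, so no replicate number pairs samples. Within the first and second RXRα mESC library by itself, the difference between regions without p300 and with p300 in mESCs alone was 2.53 and 3.09 at gene starts and −5.62 and −3.15 over 100 kb from genes. The wider motif window planned around each summit was not run for want of a genome. At their summits the regions held a median of 28 and 21 RXRα fragments in the 2 mESC libraries. Fragments of p300 and library depth were not counted. Weak p300 or RXRα binding may be missing from a list, and a region listed without p300 is one where none was called.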
